A study of Homo sapiens with 6 samples.

Results

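The genes examined here govern how a cell takes up, stores, exports and senses iron. They were compared between CWR-R1 Control cells and cells of the same line labelled as a SOX2 knockout (SOX2-KO). The genes were listed by name for their roles in iron metabolism, not by a rule on their values. Earlier results of these data were known when they were chosen. In all, 10 genes were named, and 9 of them are rows of a table of 16949 genes. HEPH, a ferroxidase gene that works with the iron exporter, is not among the rows and was not analysed here.

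CWR-R1 is an established castration-resistant human prostate cancer line derived from a xenograft. RNA was sequenced from 3 Control libraries, whose titles call the cells untreated and whose labels call them SOX2 positive, and from 3 SOX2-KO libraries, labelled SOX2 negative. No drug, time point or other treatment separates the groups. The labels do not say how SOX2 was removed, whether 1 clone or many make up the knockout line, or if each replicate was its own culture. The p-values therefore speak to library-to-library spread alone, and that spread may be technical.

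Iron enters most cells bound to transferrin, through the transferrin receptor, or as free ions through divalent metal transporters. Iron that is not used at once is held in ferritin, a hollow shell of heavy and light chains, and is released again when ferritin is delivered to the lysosome. Iron regulatory proteins bind hairpins called iron-responsive elements when iron is scarce. A hairpin in the 5′ untranslated part of an mRNA then blocks translation, and hairpins in the 3′ untranslated part protect the mRNA from decay. RNA-seq reads mRNA amount, so translational control through a 5′ element is not visible in the values below.

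The elements are shown because they are a control sequence of several of these genes. Their place also differs: 3′ in the uptake mRNAs TFRC and SLC11A2, 5′ in the storage and export mRNAs FTL, FTH1 and SLC40A1. Untranslated parts of GENCODE 29 coding transcripts (GRCh38) were searched on the sense strand for a C, 5 bases of any kind (NNNNN) and then the loop CAGTGN, with at least 4 of 5 stem pairs around the loop, counting G-T pairs. Each sequence is 29 bases long, 5′ to 3′, with the 6 loop bases in capitals. An element with another loop or with fewer stem pairs would be missed, so the numbers found need not be complete. The search found 4 elements of this form in the 3′ part of TFRC, given here in their order along the mRNA. It found 1 in the 3′ part of SLC11A2, and 1 each in the 5′ parts of SLC40A1 and FTL.
TFRC 3′, chr3:196050979-196051007, minus strand: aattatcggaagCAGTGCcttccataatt
TFRC 3′, chr3:196050575-196050603, minus strand: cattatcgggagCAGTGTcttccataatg
TFRC 3′, chr3:196050510-196050538, minus strand: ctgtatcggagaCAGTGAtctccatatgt
TFRC 3′, chr3:196050463-196050491, minus strand: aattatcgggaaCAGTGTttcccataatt
SLC11A2 3′, chr12:50988269-50988297, minus strand: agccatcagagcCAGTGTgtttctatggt
SLC40A1 5′, chr2:189580661-189580689, minus strand: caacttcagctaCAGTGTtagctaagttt
FTL 5′, chr19:48965335-48965363, plus strand: ctcttgcttcaaCAGTGTttggacggaac

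The TFRC elements had 5 of 5 upper stem pairs each, as did those of SLC40A1 and FTL, and the SLC11A2 element had 4. FTH1 also held a match in its 5′ part. SLC39A14, NCOA4 and FBXL5 held no match in either part. The TFRC elements were in 3 of 3 coding transcripts with a 3′ part, whereas the SLC11A2 element was in 5 of 10 and the SLC40A1 element in 1 of 5. The table gives 1 value per gene, so transcripts with and without an element are not separated. Over all genes, taking the longest part of each, 1.08% of 19043 genes held a match in the 5′ part and 4.32% of 19146 in the 3′ part. Of 2548 other genes with a 3′ part of similar length to that of TFRC, within 1.25 times, 6.32% held a match and 0% held as many as 4. For SLC11A2, 5.83% of 2642 other genes of similar 3′ length held a match. Below the C, 6 further positions could pair, which the search did not require. Of these, 2 paired in the SLC11A2 element, 4 in that of FTL, 5 in that of SLC40A1 and 5 or 6 in those of TFRC. IREB2 held a match with 4 of 5 pairs in the 3′ part of 1 of 2 transcripts, where 7.74% of genes of similar 3′ length hold one. A match of letters is a description and does not show that a protein binds there.

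Values are CPM, counts scaled to a common library total and not to gene length, so levels are compared between groups for a gene and not between genes. A gene is called higher or lower at a Benjamini-Hochberg adjusted p under 0.05 from limma, fitted to log2(CPM + 1) over 15927 genes. Log2 fold changes are on that scale, with their standard error, while folds are ratios of mean CPM. The estimated reads were 20717788 to 25739759 per library, and 3 reads, a floor that covers counting error only, correspond to 0.117 to 0.145 CPM. SOX2 stood at 55.7, 54.3 and 55.5 CPM in Control replicates 1, 2 and 3 and at 4.70, 4.56 and 3.83 CPM in SOX2-KO replicates 1, 2 and 3, without overlap. It was 12.6-fold lower in SOX2-KO on the mean, and its transcript was still read there, above the floor in every library. The 5 epithelial markers KRT8, KRT18, HOXB13, FOXA1 and EPCAM were all in the table, with summed levels of 1865 to 1921 CPM in Control and 1798 to 1874 CPM in SOX2-KO. Among them HOXB13 (13.1 ± 0.377 to 22.1 ± 1.27 CPM) and KRT8 (262.9 ± 13.1 to 306.1 ± 8.12 CPM) were called higher, EPCAM and KRT18 were called lower, and FOXA1 was not called. Of 13 stromal, endothelial, immune and erythroid markers 3 were in the table (COL1A1, LUM and VWF), summing to 10.8 to 11.9 CPM in Control and 22.4 to 24.5 CPM in SOX2-KO. Of the 3, VWF rose (3.55 ± 0.562 to 20.5 ± 0.629 CPM), while COL1A1 (4.86 ± 0.0942 to 1.93 ± 0.233 CPM) and LUM (2.96 ± 0.518 to 1.11 ± 0.253 CPM) fell. Their part in the iron gene results was not tested.

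Of the 9 iron genes, 2 were called higher and 5 lower, and 2 were not called. Among all genes tested, 57.8% were called in either direction, 25% higher and 32.9% lower, so a call by itself does not set these genes apart. In 8 of the 9 the Control and SOX2-KO values did not overlap, against 64.5% of all genes. The median log2 fold change was −0.24 over the 9 genes and −0.06 over all genes tested. The split was 4 higher and 5 lower with median-ratio scaling or with the chromosomal neighbourhood subtracted, and 3 higher and 4 lower with quantile normalisation. The share of all genes called under these settings is not given here, so these splits do not set the iron genes apart. These are bulk libraries, so fewer cells carrying an mRNA and less of it per cell cannot be told apart. Called genes went both ways within uptake and within storage. Tested against a minimum fold of 1.5, SLC39A14 alone was called, while 6.54% of all genes were.

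**Figure D1:**
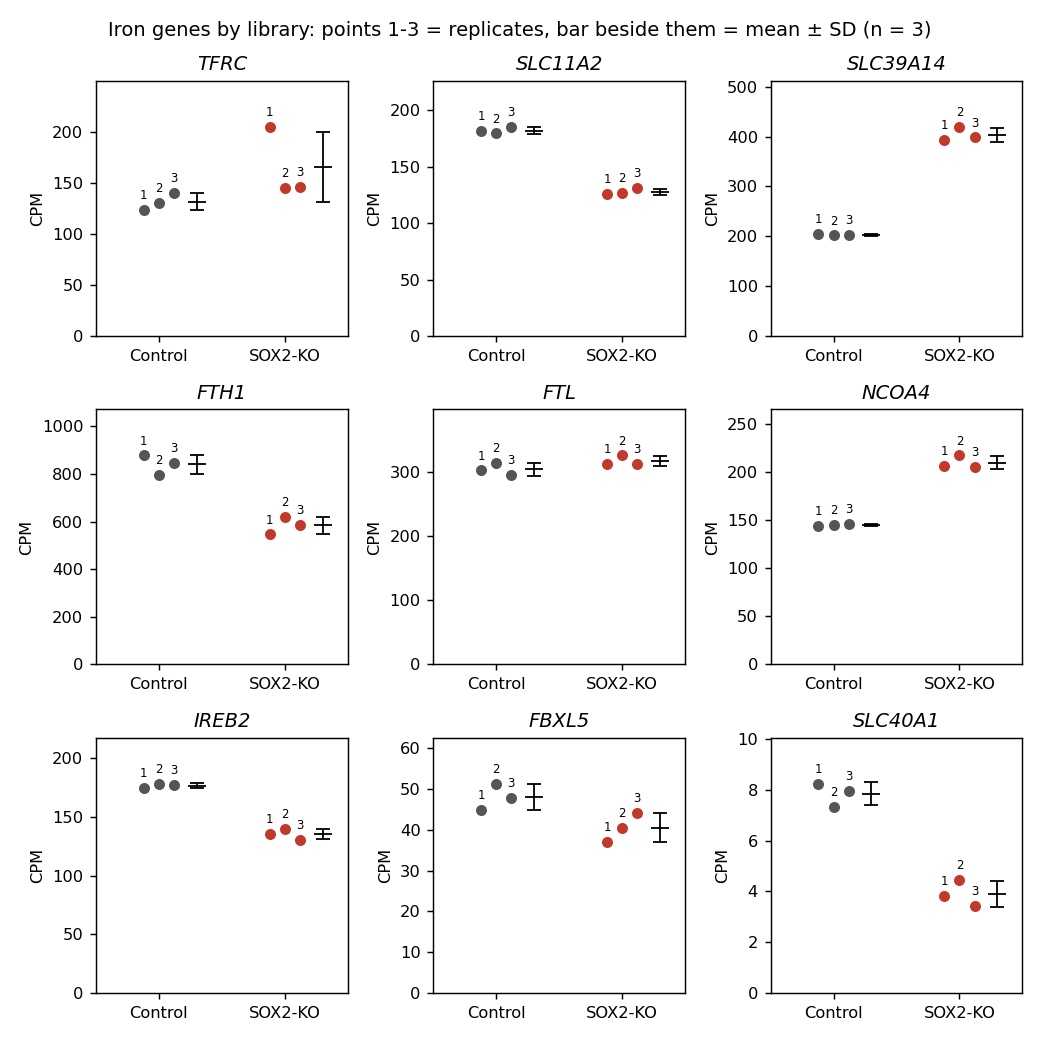
CPM of each of the 9 iron genes (vertical axes, from 0) in the 3 Control (grey) and 3 SOX2-KO (red) libraries, with replicate numbers at the points and the mean ± SD (n = 3) beside them. SLC39A14 and NCOA4 lie higher in every SOX2-KO library, FTL values overlap, and the TFRC point of SOX2-KO replicate 1 (204.7 CPM) stands above the other two.

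The uptake genes did not move together: SLC39A14 rose, SLC11A2 fell and TFRC was not called. SLC39A14 encodes ZIP14, which carries iron that is not bound to transferrin, as well as zinc and manganese. It read 205.3, 201.9 and 202.8 CPM in the Control libraries and 392.8, 419.2 and 398.3 CPM in the SOX2-KO libraries. Every SOX2-KO value was far above every Control value. The mean went from 203.3 ± 1.78 to 403.4 ± 13.9 CPM (SD, n = 3), a 1.98-fold rise (log2 0.98 ± 0.04, standard error; limma adjusted p = 2.56e-07).

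SLC11A2 encodes DMT1, which moves ferrous iron out of endosomes after the transferrin cycle and, in the gut, into the cell. It read 181.4, 179.5 and 185.2 CPM in Control and 126.2, 126.8 and 131.1 CPM in SOX2-KO. The groups were tight and far apart. SLC11A2 fell 1.42-fold, from 182.1 ± 2.90 to 128.0 ± 2.67 CPM (log2 −0.50 ± 0.04; limma adjusted p = 6.30e-06).

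TFRC, the transferrin receptor gene, was not called. It read 123.6, 130.3 and 140.3 CPM in Control and 204.7, 145.2 and 145.7 CPM in SOX2-KO. No values overlapped, but SOX2-KO replicates 2 and 3 were only a little above Control replicate 3, and replicate 1 carried most of the difference. The means were 131.4 ± 8.42 and 165.2 ± 34.2 CPM (log2 0.31 ± 0.12, 95% interval 0.04 to 0.58; limma adjusted p = 0.0525). Without SOX2-KO replicate 1 the log2 difference was 0.15 (adjusted p = 0.0512), and without replicate 2 or 3 the gene was called (0.39 in each case, adjusted p = 0.0315 and 0.0267; adjusted p from 1.92e-04 to 1 over all alternatives). It was also called with a minimum mean of 5 CPM (adjusted p = 0.0434), with median-ratio scaling (0.0329), after quantile normalisation (0.0369) and after subtracting the chromosomal neighbourhood (1.92e-04).

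Storage genes also moved apart: the heavy chain of ferritin fell, the light chain was not called, and the receptor that delivers ferritin to the lysosome rose. FTH1, the heavy chain gene, whose product oxidises ferrous iron for storage, read 877.3, 795.3 and 846.9 CPM in Control and 546.0, 618.7 and 586.9 CPM in SOX2-KO. All SOX2-KO values were below all Control values. FTH1 fell 1.44-fold, from 839.8 ± 41.4 to 583.9 ± 36.5 CPM (log2 −0.52 ± 0.06; limma adjusted p = 6.59e-05). The estimate carries an uncertainty, because exons of BEST1, on the opposite strand, cover 1267 of the 2030 exonic bases of FTH1 (62.4%) and the counting is not stated to use strand. BEST1 itself read 52.7 ± 2.87 CPM in Control and 32.3 ± 5.92 CPM in SOX2-KO. GENCODE 29 lists 25 FTH1 pseudogenes, of which 1 is in the table, FTH1P7, at 0.971 to 1.77 CPM.

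FTL, the light chain gene, whose product helps the iron core to form, read 303.1, 315.3 and 296.0 CPM in Control and 313.6, 326.5 and 313.6 CPM in SOX2-KO. The groups overlapped, since Control replicate 2 was above SOX2-KO replicates 1 and 3. The means were 304.8 ± 9.76 and 317.9 ± 7.44 CPM (log2 0.06 ± 0.04, 95% interval −0.03 to 0.15; limma adjusted p = 0.220). FTL was called higher with median-ratio scaling (log2 0.12, adjusted p = 0.0479) and with the chromosomal neighbourhood subtracted (log2 0.22, adjusted p = 0.00773, the lowest of a range that reached 1 across the alternatives).

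NCOA4 encodes the receptor that binds ferritin heavy chains and brings ferritin to the lysosome, a route called ferritinophagy. It read 143.6, 144.6 and 146.2 CPM in Control and 205.7, 216.9 and 204.9 CPM in SOX2-KO. The Control values lay within a few CPM of each other and every SOX2-KO value was well above them. NCOA4 rose 1.44-fold, from 144.8 ± 1.30 to 209.1 ± 6.73 CPM (log2 0.53 ± 0.04; limma adjusted p = 6.24e-06).

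SLC40A1, which encodes ferroportin, the iron exporter, was low in both groups and fell. It read 8.24, 7.34 and 7.96 CPM in Control and 3.83, 4.44 and 3.42 CPM in SOX2-KO. The highest SOX2-KO value was below the lowest Control value. The mean went from 7.85 ± 0.458 to 3.90 ± 0.514 CPM, 2.02-fold lower (log2 −0.86 ± 0.11; limma adjusted p = 2.00e-04). The lowest library held an estimated 84 reads of SLC40A1, against at least 813 for each of the other 8 genes, so its fold is the least precisely counted.

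Both genes of the sensing pair fell. IREB2 encodes IRP2, an iron regulatory protein that is degraded when iron is plentiful. It read 174.8, 178.3 and 177.6 CPM in Control and 135.9, 139.6 and 130.8 CPM in SOX2-KO. The groups lay well apart. IREB2 fell 1.31-fold, from 176.9 ± 1.84 to 135.4 ± 4.41 CPM (log2 −0.38 ± 0.04; limma adjusted p = 3.80e-05).

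FBXL5 encodes the iron-binding subunit of the ubiquitin ligase that marks IRP2 for degradation. It read 44.9, 51.3 and 47.9 CPM in Control and 37.0, 40.6 and 44.1 CPM in SOX2-KO. The highest SOX2-KO value lay just below the lowest Control value. FBXL5 fell 1.18-fold, from 48.0 ± 3.20 to 40.6 ± 3.53 CPM (log2 −0.24 ± 0.07; limma adjusted p = 0.0210). The call ended with quantile normalisation (adjusted p = 0.0840) and without Control replicate 2 (0.0837), Control replicate 3 (0.0539), SOX2-KO replicate 1 (0.0577) or SOX2-KO replicate 2 (0.0501). Across the alternatives its adjusted p ran from 6.39e-04 to 1.

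**Figure D2:**
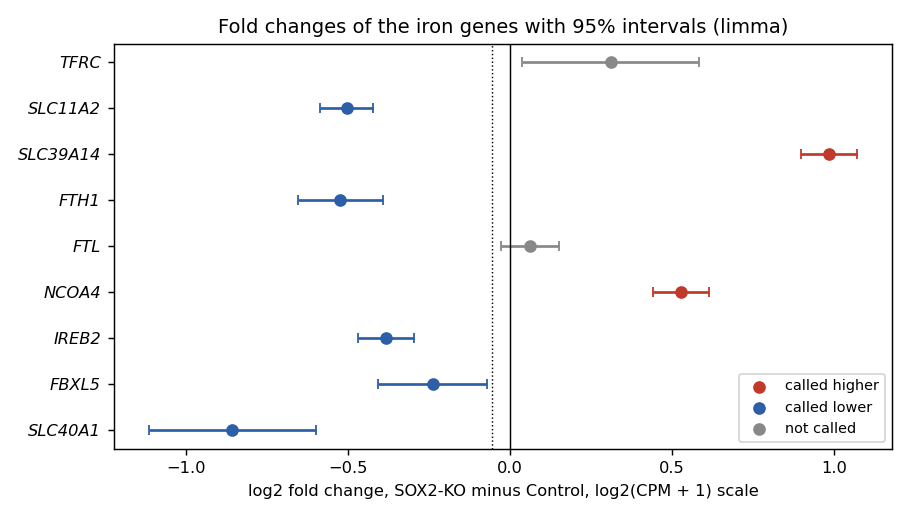
Log2 fold change of each iron gene, SOX2-KO minus Control on the log2(CPM + 1) scale (horizontal axis), with limma's 95% intervals (bars). The solid line marks 0 and the dotted line the median of all genes tested (−0.06); SLC39A14 lies farthest to the right at 0.98 and SLC40A1 farthest to the left at −0.86.

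Ratios of genes within a library do not depend on how that library was scaled. The ratio of FTL to FTH1 CPM was 0.346, 0.396 and 0.349 in Control and 0.574, 0.528 and 0.534 in SOX2-KO. Every SOX2-KO library had more FTL per FTH1 than any Control library. The ratio was higher in SOX2-KO (log2 difference 0.59; exact two-sided permutation test p = 0.1, the smallest that 3 against 3 libraries allow).

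The ratio of TFRC to FTH1, receptor against storage, was 0.141, 0.164 and 0.166 in Control and 0.375, 0.235 and 0.248 in SOX2-KO. The groups did not overlap with or without SOX2-KO replicate 1. The ratio was 1.79-fold higher (log2 difference 0.84; exact permutation p = 0.1), and the log2 difference was 0.63 without that replicate. The ratio of IREB2 to FBXL5 was 3.90, 3.48 and 3.71 in Control and 3.67, 3.44 and 2.97 in SOX2-KO. These values overlapped (log2 difference −0.14; exact permutation p = 0.2), and without SOX2-KO replicate 3 the log2 difference was −0.05.

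**Figure D3:**
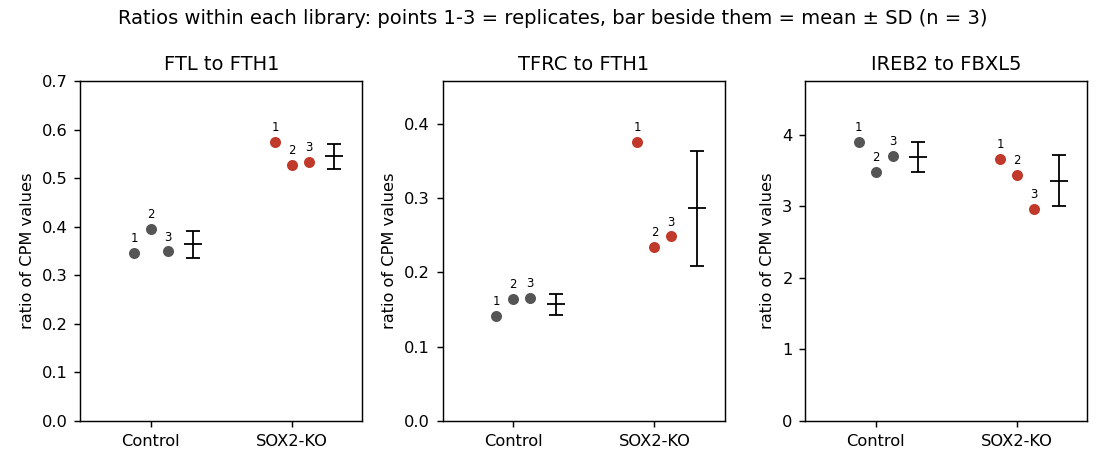
Ratio of CPM values within each library (vertical axes, from 0) for 3 gene pairs in Control (grey) and SOX2-KO (red), with replicate numbers at the points and the mean ± SD (n = 3) beside them. FTL to FTH1 and TFRC to FTH1 separate the groups, while IREB2 to FBXL5 does not.

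In some chromosome stretches most of the genes called moved the same way between these lines. Each iron gene was therefore set beside the 20 nearest tested genes on either side. TFRC (ENSG00000072274) is a minus-strand gene at 196027183 to 196082189 of chromosome 3 (GRCh38). Its 40 neighbours had a median log2 fold change of −0.63, with 31 called lower and 3 higher, and 3 of them reached the value of TFRC. With the neighbourhood subtracted TFRC was called higher (log2 0.90, adjusted p = 1.92e-04). SLC39A14 (ENSG00000104635) lies on chromosome 8, positions 22367249 to 22434129, among genes that were mostly higher: the median of its neighbours was 0.41, with 27 called higher and 4 lower. Its own log2 fold change became 0.55 after subtraction and was still called (adjusted p = 9.50e-06). Whether these stretches differ in copy number between the lines was not tested.

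The neighbours of the other iron genes had medians between −0.25 and 0.10. FTL (ENSG00000087086, chromosome 19, 48965301 to 48966878) had the lowest of these, −0.25. IREB2 (ENSG00000136381, chromosome 15, 78437431 to 78501456) had neighbours at −0.20 and SLC40A1 (ENSG00000138449, chromosome 2, 189560579 to 189583758) at −0.16. FTH1 (ENSG00000167996, chromosome 11, 61959718 to 61967660), SLC11A2 (ENSG00000110911, chromosome 12, 50979401 to 51028566), FBXL5 (ENSG00000118564, chromosome 4, 15604539 to 15681679) and NCOA4 (ENSG00000266412, chromosome 10, 46005088 to 46030714) had neighbours at −0.06, −0.07, 0.10 and 0.01. The log2 fold change of IREB2 was −0.17 after subtraction and was still called (adjusted p = 0.0103).

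**Figure D4:**
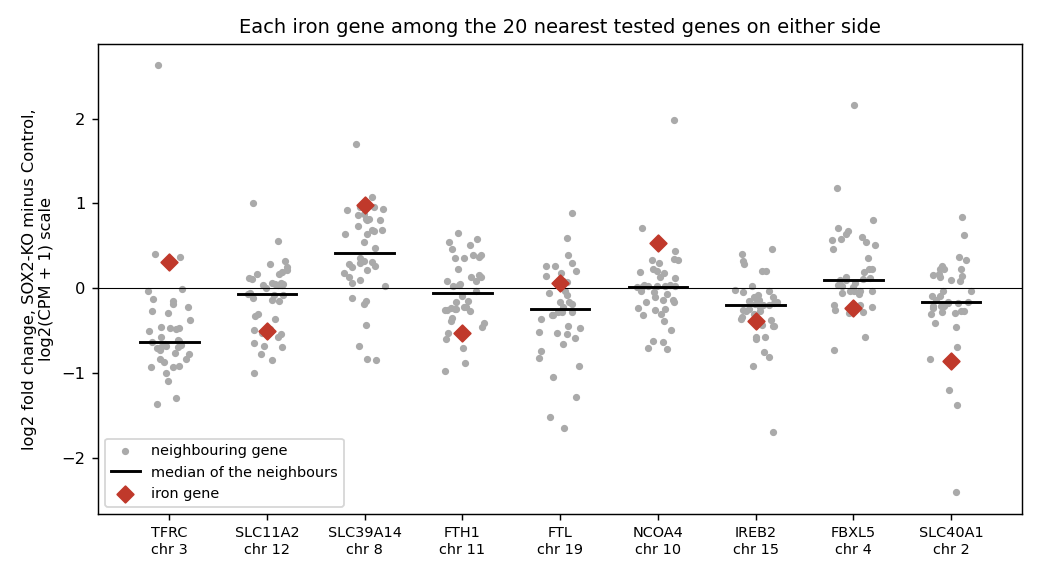
Log2 fold change (vertical axis, SOX2-KO minus Control on the log2(CPM + 1) scale) of each iron gene (red diamond), of its 40 nearest tested genes on the chromosome (grey points) and their median (black line). TFRC stands above a set with a median of −0.63, and SLC39A14 stands in the upper part of a set with a median of 0.41.

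Beyond these 9, lists of other iron genes were examined: 81 genes, of which 68 were in the table and 67 were tested. Of these 20 were called higher and 21 lower (61.2% in either direction, against 57.8% of all genes), with a median log2 fold change of −0.03. The split was 25 higher and 18 lower with median-ratio scaling, 25 and 17 with quantile normalisation and 24 and 15 with the chromosomal neighbourhood subtracted. For these settings too the share of all genes called is not given here. Against a minimum fold of 1.5, 3 of the 67 were called higher and 0 lower, while 6.54% of all genes were called in either direction. The genes not in the table, among them TF, HFE, CP, HAMP and ALAS2, were not analysed here.

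Of 10 other uptake and reduction genes tested, 4 rose and 1 fell (median log2 0.15). That is 50% called, against 57.8% of all genes (25% higher and 32.9% lower). STEAP1 and STEAP2, of a gene family whose metalloreductases reduce ferric iron before transport, both rose: STEAP1 from 0.906 ± 0.349 to 38.1 ± 2.21 CPM, and STEAP2 from 3.56 ± 0.535 to 112.0 ± 4.20 CPM (limma adjusted p = 7.69e-08 and 8.00e-09). STEAP3, the family member of the transferrin cycle, named here after its values were seen, was not called (10.9 ± 1.73 to 9.21 ± 1.67 CPM), and STEAP4 was not analysed here. SLC48A1, a haem transporter gene, fell from 27.1 ± 1.13 to 24.0 ± 0.372 CPM (adjusted p = 0.0301). That call ended with median-ratio scaling (adjusted p = 0.118), after quantile normalisation (0.142), after subtracting the chromosomal neighbourhood (0.626), with the replicate number as a block (0.0676) and when any of Control replicates 1 and 2 or SOX2-KO replicates 1 and 2 was left out (0.0634 to 0.0903; adjusted p from 0.0273 to 1 over all alternatives). SLC39A8, the importer gene closest in kind to SLC39A14, was not called (143.1 ± 6.31 to 154.1 ± 10.9 CPM).

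Of 8 other storage, chaperone, export and control genes, 1 rose and 5 fell (median log2 −0.33). With so few genes, 75% were called, against 57.8% of all genes (25% higher and 32.9% lower). PCBP2, whose product is an iron chaperone that also binds RNA, fell from 1075 ± 14.5 to 738.6 ± 22.7 CPM (limma adjusted p = 8.77e-06). NEO1, which encodes neogenin, a receptor in hepcidin control in the liver, fell from 79.9 ± 1.15 to 55.6 ± 2.04 CPM. NEO1 was no longer called once its chromosomal neighbourhood was subtracted (adjusted p = 0.0616, within a range of 9.33e-06 to 1 across the alternatives). PROM2, which encodes prominin 2 and is linked to ferritin export in vesicles, rose from 125.0 ± 7.50 to 141.4 ± 4.51 CPM. The PROM2 call ended without Control replicate 3 (adjusted p = 0.0575) and after subtracting the neighbourhood (0.0548, within a range of 0.00436 to 1 across the alternatives). PCBP1, another iron chaperone gene, was not called (385.9 ± 16.9 to 357.4 ± 10.6 CPM, limma adjusted p = 0.0605). It was called lower with quantile normalisation (adjusted p = 0.0162) and after subtracting the neighbourhood (0.0220, within a range of 0.0162 to 1 across the alternatives).

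Of 16 genes of mitochondrial iron and haem synthesis, 7 rose and 4 fell (68.8% called, against 57.8% of all genes, median log2 0.08). FECH, the ferrochelatase gene for the step that puts iron into haem, rose 2.86-fold, from 52.2 ± 1.68 to 149.1 ± 4.26 CPM (limma adjusted p = 5.28e-08). TMEM14C, a porphyrin transport gene, rose from 66.6 ± 1.13 to 98.8 ± 3.94 CPM. FLVCR1, long described as a haem exporter gene, fell from 49.6 ± 3.12 to 29.9 ± 1.06 CPM, and UROS, a haem synthesis enzyme gene, from 36.8 ± 2.97 to 24.7 ± 1.26 CPM. The mitoferrin gene SLC25A37 was not called (172.1 ± 4.54 to 164.7 ± 18.9 CPM). It was called lower without SOX2-KO replicate 3 (log2 −0.16, adjusted p = 0.0266) and after subtracting the neighbourhood (log2 −0.55, adjusted p = 2.38e-04, the lowest of a range that reached 1 across the alternatives), and without SOX2-KO replicate 2 its log2 difference was 0.0023.

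Of 25 iron-sulfur cluster assembly genes, 5 rose and 8 fell (52% called, against 57.8% of all genes, median log2 −0.03). ISCU, the scaffold on which clusters are built, fell from 113.2 ± 4.02 to 62.9 ± 9.41 CPM (limma adjusted p = 8.05e-05), and NDOR1, a reductase gene of the cytosolic pathway, from 34.0 ± 1.43 to 20.1 ± 1.59 CPM. LYRM4, a partner of the cysteine desulfurase, rose from 17.0 ± 0.975 to 29.5 ± 1.05 CPM. Subtracting the neighbourhood brought the log2 fold change of ISCU from −0.85 to −0.51, that of NDOR1 from −0.73 to −0.36 and that of LYRM4 from 0.77 to 0.36, all still called. CIAO1, a targeting factor gene of the cytosolic pathway, was not called (100.8 ± 1.10 to 104.9 ± 3.34 CPM), though it was called higher with median-ratio scaling (limma adjusted p = 0.0418) and after subtracting the neighbourhood (0.0300, the lowest of a range that reached 1 across the alternatives).

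Of 8 genes of other element-bearing mRNAs and of partners of the iron regulatory proteins, 3 rose and 3 fell (median log2 −0.03). Here 75% were called, against 57.8% of all genes. CUL1 and SKP1, subunits of the ligase that FBXL5 belongs to, both rose: CUL1 from 105.0 ± 3.23 to 142.8 ± 3.26 CPM, and SKP1 from 171.3 ± 2.80 to 201.8 ± 4.57 CPM (limma adjusted p = 2.25e-05 and 5.28e-04), opposite in direction to FBXL5. CDC14A and CDC42BPA, whose mRNAs have transcripts described with iron-responsive elements, fell from 34.0 ± 1.80 to 20.1 ± 0.307 CPM and from 293.1 ± 11.1 to 222.5 ± 13.8 CPM. With the neighbourhood subtracted the log2 fold change of CDC14A went from −0.73 to −0.49 and that of CDC42BPA from −0.40 to −0.21, both still called. Those of CUL1 and SKP1 stayed at 0.44 and 0.24. ACO1, which encodes IRP1, was not called (31.7 ± 2.95 to 29.2 ± 0.706 CPM), and its log2 difference turned from −0.11 to 0.15 with the neighbourhood subtracted, again not called.

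**Figure D5:**
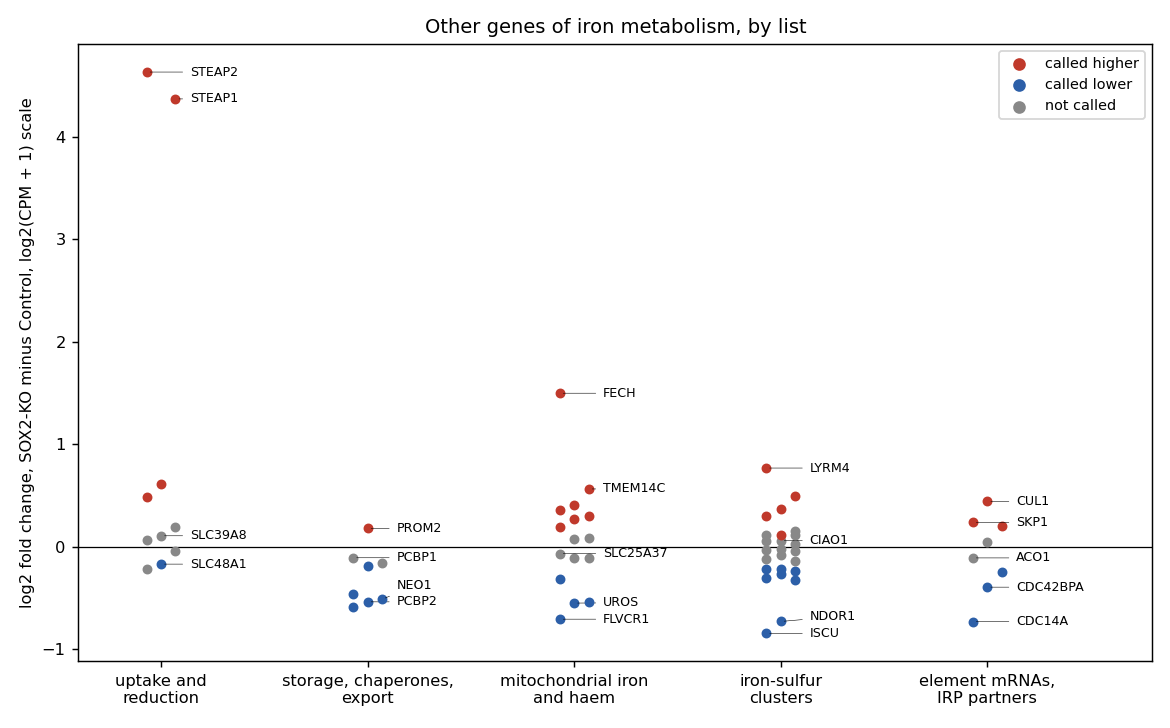
Log2 fold change (vertical axis, SOX2-KO minus Control on the log2(CPM + 1) scale) of the tested genes of 5 further iron lists (columns, with horizontal offsets to separate points), coloured by call. Genes named in the text are labelled, except STEAP3 and RBX1. STEAP1, STEAP2 and FECH stand above the rest, and in each list some genes lie above 0 and some below.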

How the data were processed

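RNA-seq values were used for 3 Control and 3 SOX2-KO libraries of CWR-R1 cells. The authors deposited CPM values for 16949 genes, scaled to the same total in each library. The submitters' processing notes list, with no role or order, the tools kallisto 0.43.1, STAR, edgeR 3.22.2, Trimmomatic 0.38, FastQC, CASAVA 1.8, Picard and SAMtools and the builds GRCh38.p12 and hg38. Whether counting used strand is not given in the sources used here.

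Reads per library were estimated from the smallest step between CPM values. Only 26.6 to 28.4% of values were whole reads within 0.001, so no count model was fitted. Replicates differed by more than counting noise (median chi-square 0.849 to 1.84, against 0.455 from counting alone), so each was kept as a replicate.

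Limma 3.58.1 in R 4.3.3 was fitted with a mean-variance trend to log2(CPM + 1) over 15927 genes whose mean reached 1 CPM, with Benjamini-Hochberg adjustment over all of them. The fit was run on simulated data in which few genes changed, up or down at random, with the same dispersion for every gene. In the real data 57.8% of genes were called, so the simulation does not show how the fit behaves there. Ratios were compared with an exact permutation test. Alternatives were pseudocounts of 0.1 and 0.5, no filter, a minimum mean of 5 CPM, a replicate block, quantile normalisation, median-ratio scaling, a minimum fold of 1.5, subtraction of the median of 20 genes on each side, and leaving out each library.

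GENCODE 29 held 16010 of the gene IDs and gave coordinates and untranslated parts, and the other 939 had no neighbourhood. The iron genes, lists and tests were chosen with earlier results of these data known. The text names every iron gene of the main set and, from each other list, up to 2 called higher and 2 called lower with the smallest p and 1 uncalled gene with the highest mean. STEAP3 and RBX1 were named outside these rules, after their values were seen. A few genes that these rules or the marker lists would name are not reported here, and the epithelial marker sum leaves them out.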

Additional observations from a re-analysis of the deposited data

How the results depend on the processing

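With 3 libraries a group, FBXL5 and TFRC lay near the threshold, and SLC40A1 had the fewest reads of the iron genes. SLC39A14 was called higher under every alternative run. FTH1, IREB2, SLC11A2, SLC40A1 and NCOA4 kept their call under every alternative except the minimum fold of 1.5. Against that fold the calls also ended for FBXL5 (log2 −0.24), with log2 fold changes, which that test leaves as they were, of −0.52 for FTH1, −0.38 for IREB2, −0.50 for SLC11A2, −0.86 for SLC40A1 (adjusted p = 0.220) and 0.53 for NCOA4. It left 1 iron gene higher and 0 lower, and 3 other list genes higher and 0 lower, with 6.54% of all genes called. Iron genes called higher numbered 4 with median-ratio scaling and 4 with the neighbourhood subtracted. TFRC became called with a minimum mean of 5 CPM (log2 0.31), median-ratio scaling (0.37), quantile normalisation (0.34) and the neighbourhood subtracted (0.90). FTL became called with median-ratio scaling (0.12) and the neighbourhood subtracted (0.22), and FBXL5 lost its call with quantile normalisation (−0.16). The median log2 fold change of all genes tested was −0.057 in the main fit, −0.004 with median-ratio scaling and 0.005 with quantile normalisation. With the neighbourhood subtracted it was −0.001. The cause of the changed calls was not tested. ACO1 turned to 0.15 with the neighbourhood subtracted, and SLC25A37 to 0.0023 without SOX2-KO replicate 2. Leaving out 1 library at a time gave log2 ranges of 0.15 to 0.39 for TFRC, −0.57 to −0.48 for FTH1, 0.04 to 0.09 for FTL, −0.41 to −0.36 for IREB2, −0.30 to −0.18 for FBXL5, −0.52 to −0.49 for SLC11A2, 0.96 to 1.00 for SLC39A14, −0.94 to −0.79 for SLC40A1 and 0.50 to 0.54 for NCOA4. The log2 difference of the IREB2 to FBXL5 ratio ran from −0.21 to −0.05. Leaving out 1 library gave 2 to 3 iron genes higher and 4 to 5 lower, and 16 to 21 other list genes higher and 16 to 20 lower. Same-numbered libraries did not deviate together (correlations −0.0446, 0.0383 and −0.0135), and not every library correlated best with its own number. With the replicate number as a block the iron gene counts were 2 higher and 5 lower, those of the other lists 18 and 19 (from 20 and 21), and TFRC had an adjusted p of 0.0672. Shares of all genes called are given for the main fit and the minimum fold of 1.5 only. Counts under the other alternatives therefore have no such share beside them.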
